A study of Mus musculus with 24 samples.

Results

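The 28 genes described here encode proteins of the small (40S) subunit of the cytosolic ribosome, together with Gnb2l1 (also called Rack1), a scaffold protein that sits on the head of that subunit. They were chosen by name, not by a measured threshold, and the list, which does not hold every small-subunit gene, leaves out Rps27 and paralogues. Of 23364 genes in the count tables, 27 members were found by symbol and Rps3a was found under its current symbol Rps3a1, and all 28 passed the filter on low counts that left 21456 genes tested.

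The 40S subunit binds mRNA, scans for the start codon and decodes it, and its mature form holds each protein once beside the 18S rRNA. The proteins are needed in step with the rRNA, since most of them are also needed to assemble the subunit, and loss of a single copy of several of the human genes causes Diamond-Blackfan anaemia, a failure of red cell production. Free ribosomal proteins can stabilise p53, and stem cells of the blood are known for a low rate of protein synthesis.

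Mysm1 encodes a deubiquitinase of histone H2A, and the series asks how its loss affects ribosomal protein genes in blood stem cells. RNA was sequenced from pooled bone marrow cells of C57BL/6 mice of both sexes aged 8 to 12 weeks, sorted as lineage-negative, Sca1+, cKit+, CD150+ and Flt3- cells into HSC (haematopoietic stem cells, CD34- CD48-), MPP1 (CD34+ CD48-) and MPP2 (CD34+ CD48+) multipotent progenitors. KO mice were Mysm1 fl/fl CreERT2 and had tamoxifen at 0.15 mg/g in 8 injections over 16 days, which deletes exon 3 of Mysm1 (n = 3 libraries in each population). Het mice were Mysm1 +/fl CreERT2 with the same tamoxifen course (n = 3), and Sham mice were Mysm1 fl mice given corn oil without tamoxifen (n = 2). The sources used here do not name the promoter that drives CreERT2 or say whether Sham mice carried it, so Sham differs from KO in allele, tamoxifen and possibly Cre, while Het differs from KO in the second floxed allele. Each library holds cells of several mice, so p-values measure the spread between pools.

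The 24 libraries held 18823971 to 53196624 counts, of which the 28 genes took 2.23% to 4.24%. HSC KO library 1 and HSC Het library 2_3 had the fewest detected genes, 15740 and 15932, against up to 21150 elsewhere. Whole-gene Mysm1 levels were 96.3, 115 and 121 CPM (counts relative to the library's scaled total) in HSC KO libraries, against 129, 138 and 109 CPM in HSC Het libraries. They overlapped, and since only exon 3 is deleted the whole-gene count checks little. Of the 6 genes of the sort, Kit lay between 503 and 989 CPM and Slamf1 (CD150) between 20.2 and 64.6 CPM throughout, and Cd48 mRNA was at 13.8 to 56.9 CPM in the CD48+ MPP2 libraries and at no more than 2.81 CPM in HSC and MPP1. The other genes followed the gates less closely. Cd34 mRNA was present at 44.1 to 106 CPM in the CD34- HSC, which overlaps the 51.5 to 272 CPM of the CD34+ MPP2 libraries, Ly6a (Sca1) was at 0.825 to 8.48 CPM in MPP2 against 16.8 to 26.7 CPM in HSC, and Flt3 was at 98 CPM in MPP2 Het library 2_3 and at no more than 27.1 CPM elsewhere.

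Levels are given as CPM scaled by edgeR's TMM factors, and changes as log2 ratios with their standard error (SE) from edgeR's quasi-likelihood test, with Benjamini-Hochberg adjustment over all 21456 genes and a threshold of 0.05. KO against Het and KO against Sham share the KO libraries, and the comparison of populations within Het uses the Het libraries again, so these are not independent of each other.

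In HSC, 8 of the 28 small-subunit mRNAs fell in KO against Het and 0 rose. The 8 were Rps15, Rps14, Rps3, Rps18, Rps10, Rps4x, Rps24 and Gnb2l1 with log2 changes between -0.84 and -0.61. Among all genes tested 0.294% were called lower and 0.322% higher. All but Rps16 and Rps28 had a change below 0, 12 had an unadjusted p under 0.05 (14.5% of all genes did), and the median over the 28 was -0.21 against 0.03 over all genes. In a bulk library, fewer cells of a type that makes more of these mRNAs and less mRNA per cell cannot be told apart.

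Of the head proteins, Rps15, which reaches from the head towards the decoding site (mm9 chromosome 10, 79755176 to 79756859, plus strand, 3 exons), had 274, 266 and 276 CPM in HSC KO libraries, against 403, 526 and 494 CPM in HSC Het libraries. The KO libraries lay close together and below all Het libraries, and below the 466 and 517 CPM of the Sham libraries. It fell by 0.80 on the log2 scale (SE 0.13, adjusted p = 0.00406, edgeR). Rps3, which lines the mRNA entry channel (chromosome 7, 106626406 to 106632248, minus strand), had 703, 672 and 846 CPM in KO, against 982, 1309 and 1447 CPM in Het. Rps3 fell by 0.75 (SE 0.16, adjusted p = 0.0234, edgeR), with the lowest Het library 1 still above the highest KO library.

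Rps18, at the top of the head where it meets the large subunit (chromosome 17, 34088944 to 34092946, minus strand), had 473, 510 and 566 CPM in KO, against 700, 859 and 955 CPM in Het. It fell by 0.70 (SE 0.15, adjusted p = 0.0258, edgeR), with no overlap between the groups. Rps10, at the beak of the head (chromosome 17, 27767367 to 27773574, minus strand), had 222, 259 and 256 CPM in KO, against 329, 376 and 440 CPM in Het, and fell by 0.64 (SE 0.14, adjusted p = 0.0258, edgeR). The scaffold Gnb2l1, which docks protein kinase C on the ribosome (chromosome 11, 48613834 to 48619936, plus strand), had 810, 897 and 912 CPM in KO, against 1147, 1329 and 1529 CPM in Het, and fell by 0.61 (SE 0.14, adjusted p = 0.0397, edgeR). In each of these genes Het library 1 was the lowest of the Het libraries and still lay above every KO library. That library stood apart in the erythroid marker Car1. This carbonic anhydrase of early red cell precursors had 1.69, 0.0406 and 0.258 CPM in KO, against 176, 17.9 and 5.65 CPM in Het. The 8 erythroid markers tested summed to 571 to 683 CPM in HSC KO, against 668.5 to 962 CPM in HSC Het. Of these markers 6 had a change below 0 and 2 above, and edgeR called 0, with 3 at an unadjusted p under 0.05. The part of these markers in the members' changes was not tested. Without Het library 1 the count of members that fell was 10. That library was the lowest of the Het libraries in the genes above, so this count does not test the markers' part.

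Of the body and platform proteins, Rps14, which binds rRNA on the platform and whose human gene is lost in a myelodysplastic syndrome (chromosome 18, 60934164 to 60938200, plus strand), had 340, 329 and 436 CPM in KO, against 517, 697 and 760 CPM in Het. It fell by 0.84 (SE 0.18, adjusted p = 0.0234, edgeR), the lowest of the 28 changes, and KO and Het did not overlap. Rps24, a Diamond-Blackfan anaemia gene in humans (chromosome 14, 25309903 to 25315368, plus strand), had 1312, 1443 and 1880 CPM in KO, against 1996, 2784 and 2945 CPM in Het, and fell by 0.74 (SE 0.17, adjusted p = 0.0386, edgeR). Its KO library 4 came close to Het library 1 without reaching it. Rps4x, a body protein encoded on the X chromosome (99380280 to 99384733, minus strand), had 1031, 1097 and 1242 CPM in KO, against 1416, 1983 and 2107 CPM in Het, and fell by 0.71 (SE 0.16, adjusted p = 0.0349, edgeR).

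**Figure D1:**
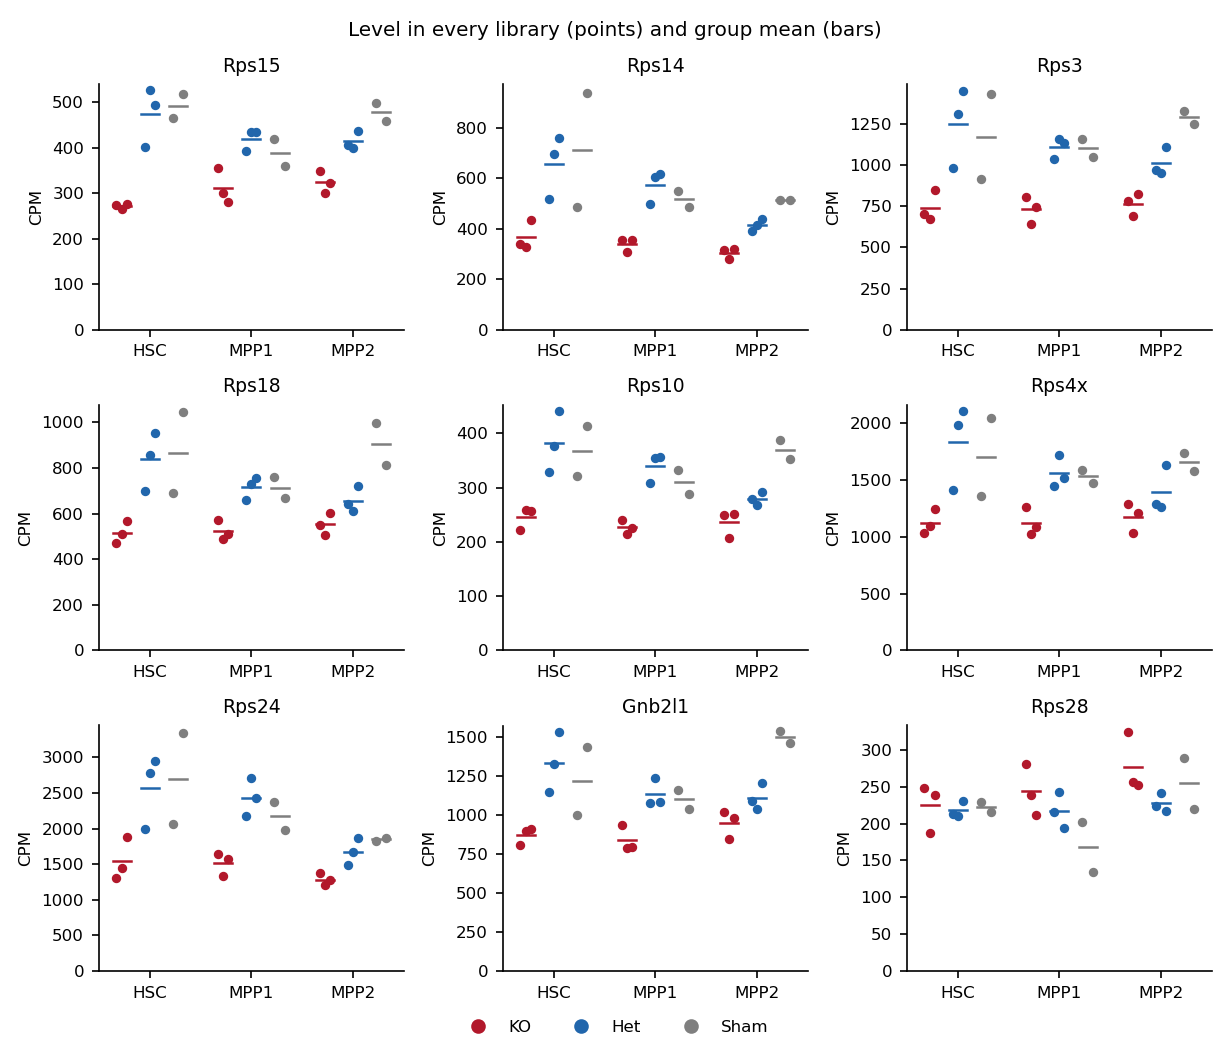
Level (CPM, linear axis from 0) of the 8 genes that fell in HSC and of Rps28 in every library, with KO, Het and Sham side by side in HSC, MPP1 and MPP2. Points are libraries and bars are group means. In HSC the KO points of the 8 genes lie below all Het points, while those of Rps28 (187 to 248 CPM) surround the Het points (210 to 231 CPM).

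Both places in the subunit were represented: 5 of 13 head proteins and 3 of 15 body and platform proteins fell. A list of 7 members whose human genes are known from Diamond-Blackfan anaemia was read, which need not hold all such members. Of these, Rps10 and Rps24 fell, while Rps7, Rps19, Rps26, Rps28 and Rps29 did not pass. Rps19, the most often affected of the human genes, had a change of -0.22 (SE 0.14, adjusted p = 0.468, edgeR). The count of members that fell depended on the libraries in the fit. Without HSC KO library 1, KO library 2_3, Het library 2_3 or Het library 4, the count was 1 each time, Rps15. It was also 1 in a fit of the HSC libraries alone and 0 without both KO library 1 and Het library 2_3. Rps15 passed in 14 of 15 alternatives, with changes from -1.04 to -0.72 and adjusted p from 2.98e-10 to 0.12. The rest of the 8 passed in 8 or 9 of the 15. Their changes stayed below 0, between -1.01 (Rps14) and -0.50 (Gnb2l1).

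The changes in HSC ranged widely over the subunit. The 10 lowest members, those 8 with Rps7 and Rps3a1, lay between -0.84 and -0.61, and the next, Rps15a, was at -0.44. Rps7 (change -0.69, adjusted p = 0.0564, edgeR) and Rps3a1 (change -0.62, adjusted p = 0.0544, edgeR) missed the threshold, though KO and Het did not overlap in either. The other 18 had a median of -0.17. At the far end Rps28, which sits near the mRNA exit, had 248, 187 and 239 CPM in KO, against 213, 210 and 231 CPM in Het, with overlapping groups and a change of 0.04 (SE 0.16, 95% interval -0.28 to 0.37). Rpsa, a platform protein also known as a laminin receptor, and Rps12, Rps25, Rps2, Rps26 and Rps16 had changes between -0.07 and 0.01.

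KO lay below all Het libraries without overlap for 11 of the 28 members in HSC, the 10 lowest and Rps15a, against 4.48% of all genes, and above for 0, against 7.16% of all genes. Between those and the members at 0, the kinase target Rps6 had a change of -0.35, Rps9 one of -0.30 and the ubiquitin fusion genes Fau and Rps27a had -0.20 and -0.16, while Rps19, Rps21, Rps23, Rps20, Rps13 and Rps29 lay between -0.22 and -0.11. None of these passed.

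**Figure D2:**
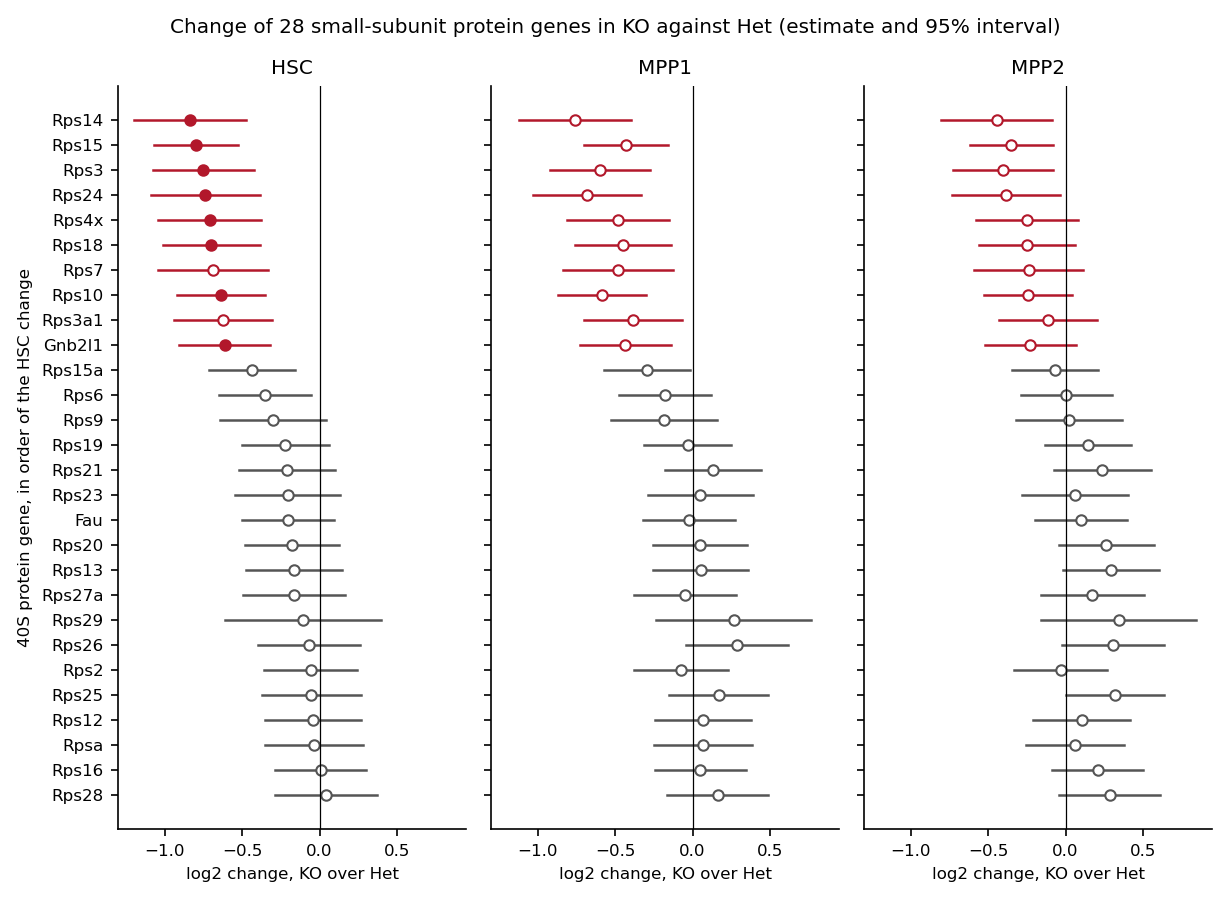
Log2 change in KO against Het of the 28 genes in HSC, MPP1 and MPP2, in the order of the HSC change, with the 95% interval as a bar. Filled points passed an adjusted p of 0.05, and red marks the 10 lowest in HSC. The same 10 genes stand at the low end in each panel, between -0.84 and -0.61 in HSC, -0.76 and -0.39 in MPP1 and -0.45 and -0.11 in MPP2.

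In MPP1, 0 of the 28 passed in KO against Het by edgeR's quasi-likelihood test, where 0.0233% of all genes were called lower and 0.0326% higher. There 11 members had an unadjusted p under 0.05, against 8.67% of all genes. DESeq2 called 5 lower, against 0.247% of all genes, and limma, run on the normalized values of the authors, called 6 lower, against 0.287%. The median was -0.06 against -0.11 over all genes. Rps14 was again the lowest, with 354, 308 and 354 CPM in KO, against 497, 605 and 617 CPM in Het, a change of -0.76 (SE 0.18, adjusted p = 0.134, edgeR) with no overlap. Rps26, which sits at the mRNA exit, was the highest, with 408, 324 and 299 CPM in KO, against 248, 310 and 289 CPM in Het, a change of 0.28 (SE 0.16, adjusted p = 0.59, edgeR) with overlapping groups.

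KO lay below all Het libraries in 11 members in MPP1, against 13.2% of all genes, and above in 0, against 8.49% of all genes. The 11 were the same genes as in HSC. In MPP2 edgeR's quasi-likelihood test also called 0 of the 28, where 0.0373% of all genes were called lower and 0.378% higher. There 5 had an unadjusted p under 0.05, against 5.63% of all genes, and DESeq2 called 0, against 0.806% of all genes in either direction. The median was 0.04 against -0.06 over all genes, with 12 members below 0 and 16 above. KO lay below all Het libraries in 8 members, against 5.6% of all genes, and above in Rps13, Rps16 and Rps28, against 9.06% of all genes.

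Rps14 was the lowest in MPP2 too, with 317, 280 and 319 CPM in KO, against 393, 416 and 438 CPM in Het, a change of -0.45 (SE 0.18, adjusted p = 0.652, edgeR). Its KO libraries all lay below its Het libraries. Rps29, a small head protein, was the highest, with 282, 189 and 183 CPM in KO, against 194, 189 and 134 CPM in Het, a change of 0.34 (SE 0.24, adjusted p = 0.993, edgeR). Here KO library 1 stood above the rest and the groups overlapped.

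The 10 lowest members of HSC were the 10 lowest of MPP1 and of MPP2 as well. The 3 comparisons use separate libraries, though the labels do not say whether the populations came from the same pools of mice. Across the 28 genes the changes in HSC and MPP1 had a Pearson correlation of 0.94 (Spearman 0.88), those in HSC and MPP2 0.92 (0.85) and those in MPP1 and MPP2 0.96 (0.94). These are descriptions over genes that share a library, not tests. The 10 had a median of -0.70 in HSC, -0.48 in MPP1 and -0.25 in MPP2, and the other 18 had -0.17, 0.05 and 0.16.

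The level of the 10 relative to the other 18 can be read within each library, with no scaling between libraries. The summed CPM of the 10 over that of the other 18 was 0.473, 0.532 and 0.538 in HSC KO libraries, against 0.703, 0.747 and 0.749 in HSC Het and 0.667 and 0.733 in HSC Sham libraries. In MPP1 it was 0.482, 0.47 and 0.514 in KO, against 0.667, 0.701 and 0.69 in Het and 0.691 and 0.711 in Sham. In MPP2 it was 0.455, 0.457 and 0.467 in KO, against 0.589, 0.575 and 0.587 in Het and 0.569 and 0.635 in Sham. Every KO library lay below every Het and Sham library of its population. The 10 were picked for their HSC values, so no test was made, and the gap in HSC follows in part from that choice; MPP1 and MPP2 libraries did not enter the choice.

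**Figure D3:**
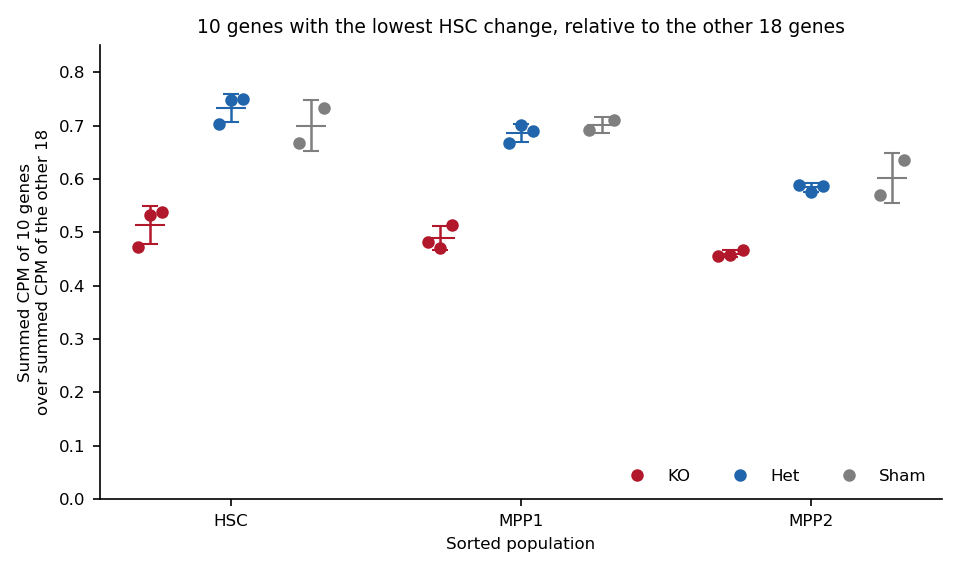
Summed CPM of the 10 genes with the lowest HSC change over the summed CPM of the other 18, per library (points), with the group mean and SD, for KO, Het and Sham in each population on a linear axis from 0. KO libraries lie between 0.455 and 0.538 and Het and Sham libraries between 0.569 and 0.749.

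The ratio also differed between populations within Het, with 0.584 ± 0.00785 in MPP2 and 0.686 ± 0.0174 in MPP1, against 0.733 ± 0.0263 in HSC (SD, n = 3 each). The HSC Het libraries entered the choice of the genes in the numerator, which favours genes high in those libraries. The higher ratio in HSC Het can therefore follow in part from that choice, and no test was made. The Het libraries of MPP1 and MPP2 did not enter the choice. Genes of the cell cycle were also compared between KO and Het. The summed level of 15 G2 and M phase genes was 4714, 2246 and 1785 CPM in HSC KO libraries, against 1708, 651 and 793 CPM in HSC Het libraries. Of the 15, 2 rose, 14 had an unadjusted p under 0.05 and all 15 were above 0, with a median of 1.39. Of 15 S phase genes 4 rose in HSC, with 12 at an unadjusted p under 0.05 and a median of 0.77. In MPP1 the G2 and M sums were 5399, 3898 and 2956 CPM in KO, against 5153, 1452 and 2241 CPM in Het. Of the 15 G2 and M genes there, 0 were called by edgeR at the threshold or at an unadjusted p under 0.05. Of the S phase genes edgeR called 0 in MPP1, with 8 at an unadjusted p under 0.05. In MPP2 the G2 and M sums were 7309 to 9542 CPM in KO, overlapping the 6523 to 8618 CPM of Het. There edgeR called 0 of the 15 G2 and M genes and 0 of the 15 S phase genes, with 0 at an unadjusted p under 0.05 in either list. In each population library 1 had the highest G2 and M level of the KO and of the Het libraries. The part of cell cycle in the members' changes was not tested.

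Summed p53 target mRNA was also higher in every KO library, at 558 to 662 CPM in HSC KO, against 351 to 416 CPM in HSC Het, and 6 of 14 targets rose in HSC. In MPP1 it was 617 to 738 CPM in KO, against 360 to 404 CPM in Het, and in MPP2 946 to 1138 CPM in KO, against 384 to 441 CPM in Het. Of the 14 targets 2 rose in MPP1 and 10 in MPP2. Summed mRNA of 12 neutrophil markers was 102 to 168 CPM in HSC KO, within the 57.0 to 593 CPM of HSC Het, and edgeR called 0 of the 12, with 0 at an unadjusted p under 0.05. In MPP1 it was 83.4 to 176 CPM in KO, against 151 to 491 CPM in Het, with 12 of 12 below 0, a median of -1.71, 0 called and 0 at an unadjusted p under 0.05. In MPP2 it was 139 to 179 CPM in KO, below the 212 to 3609 CPM of Het, with 12 of 12 below 0, a median of -2.55, 0 called by edgeR and 4 at an unadjusted p under 0.05. The part of p53 targets and of other cells in the members' changes was not tested.

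The summed level of all 28 genes was 24330, 24360 and 27920 CPM in HSC KO libraries, against 26940, 34600 and 37860 CPM in HSC Het and 26560 and 38070 CPM in HSC Sham libraries. HSC Het library 1 and Sham library 2_3 lay below KO library 4, so the sums overlapped, and the KO mean differed from the Het mean by -22.9%. In MPP1 the sums were 29140, 23860 and 25270 CPM in KO, against 27770, 32220 and 30280 CPM in Het and 30230 and 26280 CPM in Sham. In MPP2 they were 28940, 24470 and 28240 CPM in KO, against 26490, 26920 and 30460 CPM in Het and 35780 and 32450 CPM in Sham, where both Sham libraries lay above every KO and Het library. The KO mean differed from the Het mean by -13.3% in MPP1 and -2.65% in MPP2, with overlap between KO and Het in both.

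**Figure D4:**
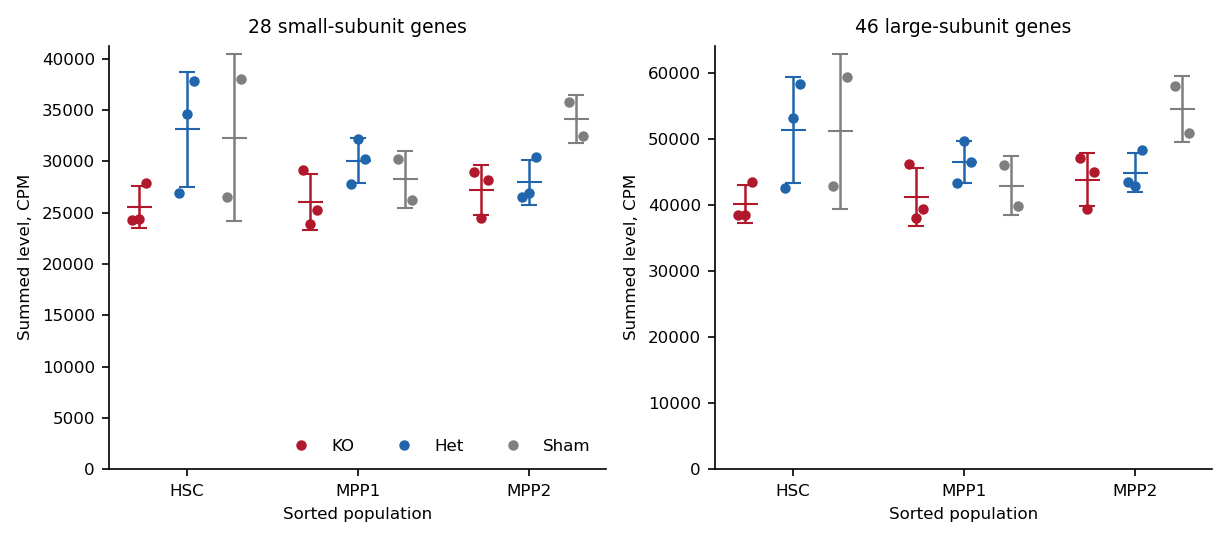
Summed level (CPM, linear axis from 0) of the 28 small-subunit genes and of 46 large-subunit genes in every library (points), with group mean and SD. In HSC the KO libraries lie low in both panels, and Het library 1 and Sham library 2_3 lie beside them.

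Other genes of the pathway were read from lists. Of 46 large-subunit protein genes tested, 9 fell and 0 rose in HSC KO against Het, with a median of -0.38 and 44 below 0. The medians were -0.20 in MPP1, with 1 lower, and -0.06 in MPP2, with 0 called by edgeR and 4 at an unadjusted p under 0.05. Of 25 factors that assemble the 40S subunit, such as the endonuclease Nob1 that matures 18S rRNA, and of 19 initiation factors that load it, 0 were called by edgeR in HSC (8 and 3 at an unadjusted p under 0.05). Their medians were above 0, at 0.23 and 0.16, with 20 of 25 and 16 of 19 genes above 0. Nob1 itself had a change of -0.20 (SE 0.17). Rps27l, a small-subunit paralogue outside the list that p53 is known to induce, rose in HSC by 1.03 (SE 0.24, adjusted p = 0.0414, edgeR). Rps27l also rose in MPP2, by 1.195 (SE 0.24, adjusted p = 0.0147, edgeR). In MPP1 its change was 0.85 (SE 0.24, adjusted p = 0.26, edgeR) and did not pass. Rps27l was named after its values were seen.

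The difference between populations in the KO response was tested with an interaction term. In the MPP2 response minus the HSC response all 28 members were above 0, with a median of 0.37 against -0.10 over all genes, but edgeR's quasi-likelihood test called 0 of them and 0.0326% of all genes. There 6 had an unadjusted p under 0.05, against 7.29% of all genes, and DESeq2 called 0 members and 0.312% of all genes. In the MPP1 response minus the HSC response 27 of 28 were above 0, with a median of 0.18 against -0.10 over all genes, and edgeR again called 0, and 0% of all genes. In that test 0 members had an unadjusted p under 0.05, against 4.87% of all genes, and DESeq2 called 0 members and 0.107% of all genes. A difference in response between populations was not shown for any single member.

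Against Sham, 6 members fell in HSC KO and 0 rose: Rps15, Rps14, Rps24, Rps18, Rps3 and Rps10, all of them among the 8 above. All genes called made up 0.382% lower and 1.9% higher. Rps15 fell by 0.85 (SE 0.15, adjusted p = 0.0036, edgeR) and Rps14 by 0.95 (SE 0.19, adjusted p = 0.00963, edgeR). The Sham libraries differed from each other: Rps14 had 486 CPM in library 2_3 and 938 CPM in library 4. The count was 1, Rps15, without KO library 1 or without Sham library 4. KO lay below both Sham libraries in 12 members, against 10.2% of all genes, and above in 0, against 15.8%. Of the 15 G2 and M phase genes 5 rose in this comparison and of the S phase genes 8, and their part in it was not tested.

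In MPP1, KO against Sham gave 0 called members by edgeR's quasi-likelihood test, where 0.0419% of all genes were called lower and 0.0792% higher. DESeq2 called 2 lower, against 0.289% of all genes. At an unadjusted p under 0.05 there were 13 members, against 10.4% of all genes, of which 8 had a change below 0 and 5 above 0. KO lay below both Sham libraries in 10 members, the 10 lowest in HSC KO against Het, against 20% of all genes. It lay above both in 5, Rps21, Rps25, Rps26, Rps28 and Rps29, against 18.6% of all genes, with changes between 0.39 and 0.84 that did not pass. In MPP2, Rps3, Rps18, Rps10 and Gnb2l1 fell and 0 rose, against 0.14% of all genes called lower and 0.489% higher. Rps3 had 782, 690 and 821 CPM in KO, against 1328 and 1250 CPM in Sham, and fell by 0.76 (SE 0.18, adjusted p = 0.0341, edgeR). Gnb2l1 had 1021, 846 and 980 CPM in KO, against 1535 and 1462 CPM in Sham, and fell by 0.66 (SE 0.16, adjusted p = 0.0427, edgeR). These 4 calls depended on the libraries in the fit: the count was 0 when any 1 of MPP2 KO libraries 1, 2_3 and 4 was left out. KO lay below both Sham libraries in 16 members, against 9.87% of all genes, and above in 0, against 13.6%.

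Het against Sham gave 0 members called by edgeR's quasi-likelihood test or DESeq2 in HSC, MPP1 and MPP2, with 0% of all genes called by edgeR in HSC, 0% in MPP1 and 0% in MPP2. By DESeq2 the called share of all genes was 0.368% for HSC, 0.0233% for MPP1 and 0.112% for MPP2. At an unadjusted p under 0.05 there were 0 members in HSC, against 6.92% of all genes, 3 in MPP1, against 0.965%, and 6 in MPP2, against 5.32%. Het lay below both Sham libraries in 18 members in MPP2, against 11.9% of all genes. In MPP1 Het lay above both in 5 members, against 8.75% of all genes, and below both in 0, against 8.38%. The median over the 28 was 0.03 in HSC, 0.11 in MPP1 and -0.25 in MPP2. All 28 were above 0 in MPP1 and all 28 were below 0 in MPP2. In MPP2 the median was -0.33 in the 10 lowest members of HSC and -0.23 in the other 18.

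Within Het, MPP2 was compared with HSC to see how the 28 genes differ along the series of populations without the full deletion. In MPP2, 7 members were lower than in HSC and 0 higher: Rps14, Rps24, Rps9, Rps3a1, Rps10, Rps13 and Rps19. All genes called made up 8.37% lower and 9.59% higher. The median was -0.26 against -0.01 over all genes. Rps14 had 393, 416 and 438 CPM in MPP2 Het, against 517, 697 and 760 CPM in HSC Het, and fell by 0.66 (SE 0.18, adjusted p = 0.00725, edgeR); it passed in 13 of 13 alternatives.

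Rps24 had 1488, 1668 and 1873 CPM in MPP2 Het, against 1996, 2784 and 2945 CPM in HSC Het, and fell by 0.62 (SE 0.17, adjusted p = 0.00965, edgeR). Rps9, a body protein near the mRNA entry, had 877, 860 and 906 CPM in MPP2 Het, against 1012, 1369 and 1577 CPM in HSC Het, and fell by 0.58 (SE 0.17, adjusted p = 0.0136, edgeR). Rps3a1 had 1813, 1820 and 1924 CPM in MPP2 Het, against 2042, 2814 and 3069 CPM in HSC Het, and fell by 0.51 (SE 0.15, adjusted p = 0.0178, edgeR). In each of these genes all MPP2 Het libraries lay below HSC Het library 1, the lowest of the HSC Het libraries. The count was 2 without HSC Het library 2_3, 1 without HSC Het library 4, 2 without MPP2 Het library 1 and 4 without MPP2 Het library 2_3. Of the G2 and M phase genes all 15 rose in MPP2 against HSC and of the S phase genes 14, as did 3 of 8 erythroid markers, and their part in the members' changes was not tested. MPP2 Het library 2_3 stood apart in neutrophil markers, at 3609 CPM against 212 CPM in the lowest MPP2 Het library.

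In MPP1 against HSC within Het, edgeR's quasi-likelihood test and DESeq2 called 0 members, where edgeR called 0.014% and DESeq2 1.03% of all genes. An unadjusted p under 0.05 was reached by 0 members, against 9.89% of all genes. There 26 of 28 were below 0, with a median of -0.16 against 0.05 over all genes and a range from -0.31 for Rps7 to 0.04 for Rps2. MPP2 minus HSC differences of the 28 spread more widely, from -0.66 for Rps14 to 0.26 for Rps2, a body protein by the mRNA entry.

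Levels between genes were compared per length, as CPM per kb of the exon length in the count tables. In HSC Het libraries Rps23, which lies at the decoding centre, was the highest at 3656 ± 683 CPM per kb, followed by Rps6 at 2995 ± 548 and Rps3a1 at 2801 ± 567 CPM per kb (SD, n = 3 each). These neighbours did not differ beyond their spread. At the low end Fau had 337 ± 55.4 CPM per kb and Rps15a 155 ± 2.57 CPM per kb (SD, n = 3 each), the last divided by an annotated length of 5134 bp that is far above the others. Fau was divided by 1881 bp, while its longest coding transcript has 561 bp, so its place depends on the length used. The same holds for Rps24, divided by 2569 bp, while its longest coding transcript has 855 bp.

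**Figure D5:**
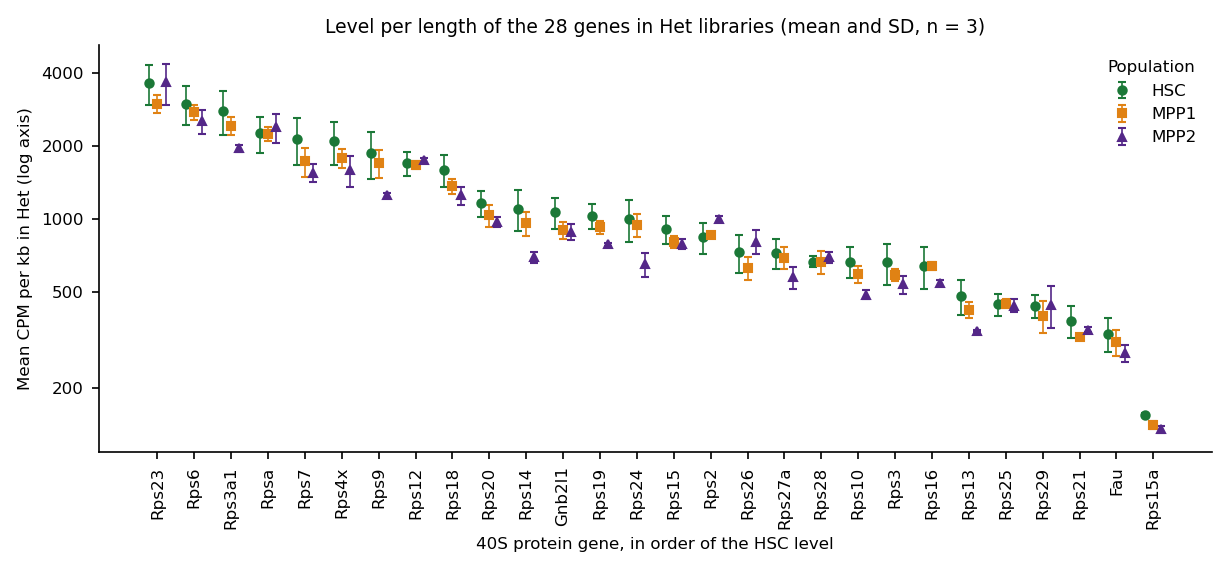
Mean level per length (CPM per kb of exon, log axis) of the 28 genes in Het libraries of HSC, MPP1 and MPP2, with SD (n = 3), in the order of the HSC level. Rps23 is at the top with 3656 CPM per kb in HSC and Rps15a at the bottom with 155 CPM per kb.

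Most of these genes have processed pseudogenes, and reads can fall on copies. The share of a gene's 50-base words (the read length) that also occur exactly elsewhere in the mm9 genome was 0.93% for Gnb2l1 and 3.36% for Rps3, against 94.7% for Rps6 and 98.1% for Rps12. How multiply mapped reads were counted is not given in the sources used here, so levels of genes with a high share are uncertain. Among them are Rps23 (84.1%) and Rps3a1 (78.8%), which with Rps6 had the highest levels per length in HSC Het. Rps3 and Gnb2l1 are the members with the lowest share of repeated words, and both fell in HSC. The next lowest, Rps15a at 6.05% and Rps20 at 10.1%, did not pass, while Rps18 at 74.7% and Rps4x at 84.3% fell. Over the 28 genes this share had a Pearson correlation of 0.24 with the HSC change, a weak relation (n = 28). Separately counted pseudogene rows existed for Rps15a (4.83% to 11.9% of its counts) and Rps19 (6.82% to 9.25%), and adding them left the 8 calls in HSC.

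The 10 lowest members had a median gene length of 4935 bp, against 2688 bp in the other 18, and a median of 6 exons, against 5 exons, in the longest transcript. The gene length had a Pearson correlation of -0.37 with the change in HSC, -0.47 in MPP1 and -0.40 in MPP2 (n = 28 genes in each), as a description. Annotated snoRNAs lay inside 9 of the 28 genes on the same strand, 3 of them among the 10, Rps3, Rps3a1 and Gnb2l1.

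The start regions of 7 of the 8 genes that fell in HSC, and of Rps28 from the other end of the range, are shown because ribosomal protein mRNAs are known for a run of pyrimidines at their start, through which their translation is controlled. Each runs from 100 bases before to 20 bases after the RefSeq start (GRCm38.p6), 5′ to 3′ on the gene's strand, with the longest pyrimidine run within 20 bases of the start in capitals.
Rps15 (chr10:80292331-80292450, plus strand): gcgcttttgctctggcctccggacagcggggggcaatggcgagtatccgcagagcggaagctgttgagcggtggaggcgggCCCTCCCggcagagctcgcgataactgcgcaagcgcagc
Rps3 (chr7:99483690-99483809, minus strand): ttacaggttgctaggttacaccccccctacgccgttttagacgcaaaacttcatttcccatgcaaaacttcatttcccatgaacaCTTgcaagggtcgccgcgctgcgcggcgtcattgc
Rps18 (chr17:33955646-33955765, minus strand): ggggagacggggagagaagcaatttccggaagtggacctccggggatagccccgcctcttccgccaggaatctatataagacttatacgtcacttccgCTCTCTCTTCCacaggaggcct
Rps10 (chr17:27635225-27635344, minus strand): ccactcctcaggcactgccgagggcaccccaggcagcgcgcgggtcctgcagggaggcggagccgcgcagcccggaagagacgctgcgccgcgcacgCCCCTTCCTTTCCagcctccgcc
Rps4x (chrX:102189372-102189491, minus strand): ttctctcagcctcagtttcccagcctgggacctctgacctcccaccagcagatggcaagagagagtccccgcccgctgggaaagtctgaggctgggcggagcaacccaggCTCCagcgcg
Rps24 (chr14:24490578-24490697, plus strand): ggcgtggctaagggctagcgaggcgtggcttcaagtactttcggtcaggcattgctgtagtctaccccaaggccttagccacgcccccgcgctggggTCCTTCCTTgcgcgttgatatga
Gnb2l1 (chr11:48800260-48800379, plus strand): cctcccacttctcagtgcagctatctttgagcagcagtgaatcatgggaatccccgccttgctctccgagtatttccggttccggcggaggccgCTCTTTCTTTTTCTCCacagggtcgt
Rps28 (chr17:33824543-33824662, minus strand): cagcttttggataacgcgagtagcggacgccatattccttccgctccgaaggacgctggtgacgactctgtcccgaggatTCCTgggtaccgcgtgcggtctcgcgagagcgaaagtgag

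Gnb2l1, Rps10 and Rps18 hold runs of 16, 13 and 11 pyrimidines there, and Rps3, Rps4x and Rps28 runs of 3, 4 and 4, so genes that fell hold both long and short runs at these annotated starts. Over the 24 members with a window the median run was 7, against 5 over all 27025 genes, and 11 of 24 had a run of 8 or more, against 15.9% of all genes. Among the 10 lowest members 9 had a window, and 4 of those had such a run.

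Words searched on both strands of the 300-base window, from 250 bases before to 50 after the start, were counted each on its own, overlaps included. The ETS core CCGGAAG was in 10 of 24 members (41.7%), against 9.12% of all genes, and the GC box GGGCGG in 13 of 24 (54.2%), against 35.9%. The YY1 core AAGATGG was in 5 of 24 (20.8%), against 6.48%, the TATA box TATAAA in 2 of 24 (8.33%), against 14.2%, and the E-box CACGTG in 0 of 24, against 7.24%. Of the 9 windows of the 10 lowest members, 4 held the ETS core, 4 the GC box and 1 the YY1 core. A match is a run of letters in this window and says nothing of binding.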

How the data were processed

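Per the labels' protocols, RNA of sorted pooled cells was rRNA-depleted, made into stranded libraries and sequenced as 50-base pairs. The deposited counts are whole reads per gene in 24 libraries. The submitters' processing notes name the build mm9, the counter featureCounts, the aligners Bowtie 1.0.0 and TopHat2 2.0.9, Trimmomatic 0.33 with FastQC, and edgeR under R 3.1.2, with no settings. The authors also deposited a normalized signal table, with steps not given in the sources used here; it served only as an alternative.

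Counts were joined by gene, filtered with filterByExpr, scaled by TMM and fitted over all 24 libraries as 9 groups with edgeR 4.0.16 (glmQLFit and glmQLFTest, R 4.3.3), with Benjamini-Hochberg adjustment over 21456 genes. Depth was 18823971 to 53196624 counts, so counting error is small beside the spread between libraries, which n = 2 or 3 estimates loosely. The fits were tested on simulated data. Positions come from GENCODE vM1 on mm9, and promoter windows from RefSeq on GRCm38.p6 with Python 3.11.15.

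The members and all lists were chosen with earlier results of these data known. Named in full were, in KO against Het, up to 8 members past the threshold by smallest adjusted p and the highest and lowest change, and up to 4 past it between populations or in interactions; the Sham values named, and the 10 lowest members, were chosen after seeing values. Alternatives were RLE scaling, TMM without ribosomal protein genes, no filter, DESeq2 1.42.0, limma 3.58.1 on log2(signal + 1), a replicate block, pseudogene counts added, each population alone, and libraries left out.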

Additional observations from a re-analysis of the deposited data

How the results depend on the processing

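The count of members called in HSC KO against Het was 8, and was 1 in a fit of HSC alone, 0 without both HSC KO library 1 and HSC Het library 2_3, and 1 to 10 with 1 library left out. In MPP1 KO against Het it was 0, against 5 with DESeq2, 1 with the replicate block and 6 with the authors' table. KO against Sham gave 6 in HSC, against 14 with the authors' table, 3 with HSC alone, 1 without both libraries and 1 to 5 with 1 library left out. It gave 0 in MPP1, against 2 with DESeq2 and 6 with the authors' table, and 4 in MPP2, against 7 with DESeq2, 1 with the authors' table, 2 with MPP2 alone and 0 to 1 with 1 library left out. MPP2 against HSC in Het gave 7, against 22 with the authors' table, 4 without both libraries and 1 to 10 with 1 library left out. The other 160 counts and sums stayed within 1.5 times or their spread. Of single members, 53 values no longer passed, 3 newly passed and 6 changed sign, all 6 of Rps28 in HSC KO against Het: -0.008 with RLE scaling and -0.008 with DESeq2, -0.157 with the authors' table, -0.061 without both libraries, and with 1 library left out -0.035 (HSC KO library 1) at the lowest and 0.157 (HSC KO library 2_3) at the highest, with -0.004 for HSC KO library 4. The cause was not tested. Fewer libraries enter each fit that leaves some out. The replicate block gave 10 in HSC KO against Het. Over all genes it called 533 higher and 193 lower there, against 69 and 63 without the block. The numbers were not taken to pair the samples, and whether same-numbered libraries share a source was not tested. Over all genes, deviations from group means of same-numbered KO and Het libraries correlated at -0.338, -0.081 and 0.048 in HSC. They correlated at 0.074, 0.023 and 0.015 in MPP1 and 0.006, 0.33 and 0.224 in MPP2. Over the 28 members alone the values were 0.506, 0.068 and 0.525 in HSC, 0.66, -0.201 and 0.657 in MPP1 and 0.515, -0.082 and 0.467 in MPP2, positive for numbers 1 and 4 and near or below 0 for 2_3.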
